A study of Mus musculus with 4 samples.

Results

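The Jun genes (Jun, Junb, Jund), the Fos genes (Fos, Fosb, Fosl1, Fosl2) and 3 other immediate early genes (Egr1, Ier2, Ier3) were followed in a mouse lung epithelial line. These 10 genes were chosen by name from the 46078 genes counted, and all 10 had both a count and an RPKM value. The cells were MLE-12, an immortalised mouse alveolar epithelial line, and the study asks what Lingo1 does when such an epithelium closes a wound. The 4 libraries were Lingo1 KO cells 24 hours after a scratch, unscratched Lingo1 KO cells, WT cells 24 hours after a scratch, and unscratched WT cells. There was 1 library per condition, so no difference below has a replicate check. How the knockout was made, and whether the KO cells are 1 clone, is not given in the sources used here.

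AP-1 is a transcription factor made of a Jun protein paired with another Jun protein, a Fos protein or a related basic leucine zipper protein. Fos proteins do not pair with themselves and need a Jun partner. Immediate early genes are switched on by growth factors, stress or wounding without new protein synthesis, and most of their mRNAs are short-lived. In epithelial sheets Fos and Egr1 are known for a brief induction at a wound edge soon after injury, so a sample taken 24 hours later is a late time for them.

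The libraries held 48333801 counts in KO scratched, 29533746 in KO unscratched, 27907279 in WT scratched and 26903429 in WT unscratched cells. Lingo1 itself was at 41.3 CPM (counts scaled to a common library size, with TMM factors) in KO scratched and 41.3 CPM in KO unscratched cells, against 42.7 CPM in WT scratched and 46.7 CPM in WT unscratched cells. The KO to WT ratio was 0.967 (0.900 to 1.04) in scratched and 0.885 (0.818 to 0.959) in unscratched cells. The libraries labelled KO thus did not show a loss of Lingo1 counts, and the genotype is given here only as labelled. Counts over a whole gene do not show whether its coding sequence is altered. Epithelial Cdh1 (713.8 to 854.7 CPM) and Krt19 (1138 to 1271 CPM) were high in every library. Epcam was low, at 5.26 to 5.49 CPM, and Krt18 stayed at or below 0.285 CPM. Krt8 stood at 329.9 and 329.3 CPM in KO scratched and unscratched cells against 257.1 and 248.6 CPM in WT. Of 10 alveolar type 2 markers 7 were tested. Abca3 (164.5 to 185.4 CPM), Lpcat1 (144.7 to 147.5 CPM) and Nkx2-1 (127.4 to 164.4 CPM) were high in every library. Sftpa1 and Sftpd were at 0, Lamp3 stayed at or below 0.321 CPM and Napsa was at 1.16 to 1.89 CPM. The surfactant gene Sftpb was at 93.2 and 106.9 CPM in KO scratched and unscratched cells against 22.8 and 25.6 CPM in WT, and Sftpc at 19.7 and 20.6 CPM against 6.38 and 5.72 CPM. Of 7 leukocyte markers, 6 stayed under 1 CPM in every library, Ptprc was at 0, and the level summed over all 7 lay between 1.87 and 2.14 CPM. Of 5 endothelial markers, all but Tek (178.2 to 220.3 CPM) stayed under 1 CPM and Cdh5 was at 0. Of 7 fibroblast markers 4 were tested. Dcn was high throughout (2471 to 2865 CPM) and Col1a1 was at 176.2 and 197.3 CPM in KO scratched and unscratched cells against 16.4 and 21.4 CPM in WT. Pdgfrb had 135 and 67 counts in KO scratched and unscratched cells against 1 and 0 in WT, and Pdgfra had 93 and 68 counts in KO against 32 and 35 in WT. Col1a2, Col3a1 and Lum stayed at or below 0.203 CPM. By genotype 3 of the 7 tested type 2 markers (Sftpb, Sftpc and Etv5) and 3 of the 4 tested fibroblast markers (Col1a1, Pdgfrb and Pdgfra) rose in the additive edgeR fit of genotype and scratch, and 0 of either list fell. Over all tested genes 12.2% rose and 11.0% fell. The part of these markers in the results was not tested. Counts from mitochondrial genes made up 0.828%, 0.721%, 0.71% and 1.03% of the KO scratched, KO unscratched, WT scratched and WT unscratched libraries.

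The upstream sequence of 4 AP-1 genes is shown because their levels differed most between the unscratched libraries or because they carry the family's best-known regulatory elements. Windows from RefSeq on GRCm38.p6 were used for 7 of the 10 genes. Fosl1, Egr1 and Ier2 have no window here, and Egr1 was left out of the search. The lines below give the 150 bases before the RefSeq start of transcription, on the gene's own strand, and capitals mark the motifs found. The windows are chr4:95052223-95052372 (minus strand) for Jun, chr8:84978749-84978898 (minus) for Junb, chr12:85473740-85473889 (plus) for Fos and chr7:19310046-19310195 (minus) for Fosb. The RefSeq and GENCODE starts differ by 0, 30, 0 and 6 bases for these genes. For the windows not shown they differ by 1210 bases for Jund, 671 for Fosl2 and 29 for Ier3. The Jund and Fosl2 windows thus do not lie directly before the GENCODE starts.
Jun: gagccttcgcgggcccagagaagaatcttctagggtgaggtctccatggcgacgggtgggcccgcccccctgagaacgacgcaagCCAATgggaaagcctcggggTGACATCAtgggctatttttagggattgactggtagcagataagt
Junb: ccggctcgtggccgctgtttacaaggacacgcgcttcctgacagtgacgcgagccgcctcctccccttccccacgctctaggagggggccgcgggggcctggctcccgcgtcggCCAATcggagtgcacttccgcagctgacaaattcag
Fos: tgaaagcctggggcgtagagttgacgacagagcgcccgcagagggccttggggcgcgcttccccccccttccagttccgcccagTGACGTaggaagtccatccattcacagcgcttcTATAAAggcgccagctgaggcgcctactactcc
Fosb: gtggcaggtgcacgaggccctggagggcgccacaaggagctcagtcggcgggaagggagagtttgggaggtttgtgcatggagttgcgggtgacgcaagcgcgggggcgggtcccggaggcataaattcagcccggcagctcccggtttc
The Jun window holds a variant of the AP-1 site, TGACATCA, whose first base lies at -45 from the start, and a CCAAT box at -65. TGACATCA was in 2.32% of all 32851 windows on either strand. The Fos window holds the cAMP response element core TGACGT at -66, found in 5.15% of windows, and a TATA box (TATAAA) at -33, found in 7.57%. Junb holds a CCAAT box at -36 (CCAAT, in 24.5% of windows), and Fosb held none of the motifs searched. Neither the consensus AP-1 site TGACTCA (2.84% of windows) nor a CArG box (0.916%), the element bound by serum response factor, was in any of the 7 windows. Only the 150 bases before each start were searched, so elements farther upstream could not be seen. The motifs found do not overlap in these windows. The full cAMP response element TGACGTCA, which contains the core, was in 0 of the 7 windows and in 1.36% of all windows.

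The genes differ in structure. Jun (chromosome 4, 95049034 to 95052222, mm10, minus strand), Junb (chromosome 8, 84974484 to 84978718, minus), Jund (chromosome 8, 70698949 to 70700616, plus) and Ier2 (chromosome 8, 84661331 to 84662852, minus) each have 1 exon, a form found in 1.64% of the tested protein-coding genes. Fos (chromosome 12, 85473890 to 85477273, plus) and Fosl2 (chromosome 5, 32135801 to 32157842, plus) have 4 exons. Fosb (chromosome 7, 19302696 to 19310051, minus), Fosl1 (chromosome 19, 5447547 to 5455946, plus), Egr1 (chromosome 18, 34859823 to 34864984, plus) and Ier3 (chromosome 17, 35821684 to 35822923, plus) have 2 to 5 exons, depending on gene and transcript. Transcripts of Jund (67.1% GC), Junb (62.6%), Ier2 (60.9%) and Fosl1 (58.5%) were in the highest 10% of tested genes for GC content, against a median of 50.0%. The pentamer ATTTA, the core of AU-rich elements that speed mRNA decay, occurred 8.16 times per kb in the 3′ UTR of Ier3, 4.91 in Fos, 4.12 in Junb and 3.24 in Jun, against a median of 1.34 over 11590 tested genes. It was absent from the annotated 3′ UTR of Ier2 and rare in Fosb (0.434 per kb).

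Per length, the Jun genes were all well expressed and the Fos genes were unequal. Jund, the Jun gene usually present in resting cells, stood at 96.4, 99.8, 94.7 and 140.7 RPKM in KO scratched, KO unscratched, WT scratched and WT unscratched cells, as the authors computed them. Junb stood at 77.2, 65.5, 73.1 and 98.6 RPKM and Jun at 37.5, 36.3, 49.2 and 63.1 RPKM, so the order of RPKM was Jund, Junb, Jun in every library. Among the Fos genes, Fos held 63.2% to 66.3% of the family's summed RPKM and Fosl2 27.5% to 31.3%. Fosb, at 1.80 to 4.46 RPKM, and Fosl1, at 0.736 to 1.68 RPKM, were the scarcest of the 10. Ier2, a nuclear protein, and Ier3, a survival-related early response protein, stood at 85.7 to 132.1 and 87.0 to 103.4 RPKM. The zinc finger factor Egr1 stood at 51.4 to 71.2 RPKM. The median over all genes with a value was 7.15 to 7.18 RPKM.

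**Figure D1:**
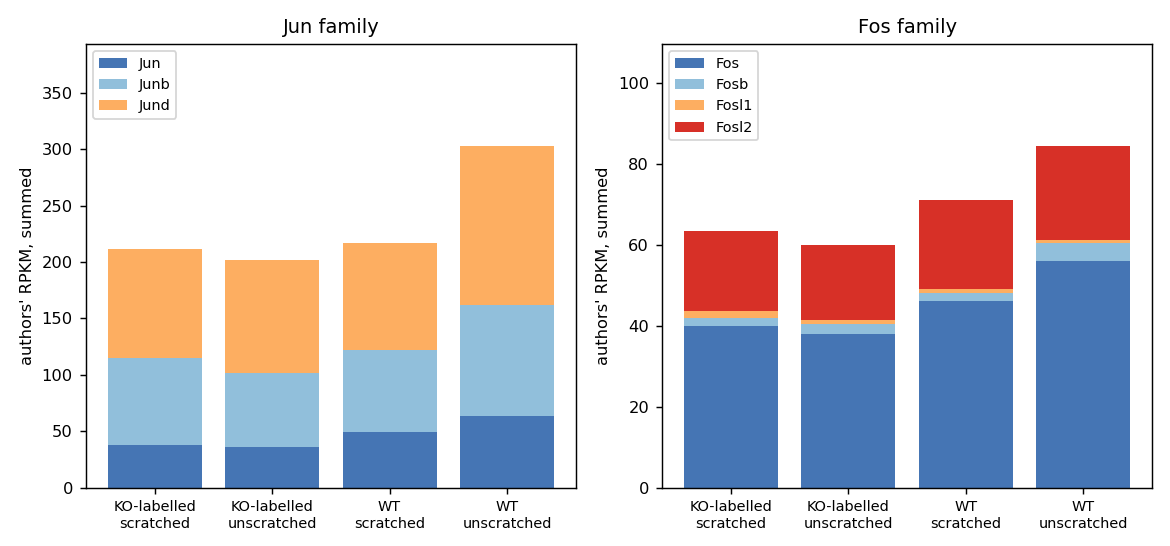
Summed RPKM (vertical axis, the authors' values) of the Jun genes (left) and Fos genes (right) in the KO-labelled scratched, KO-labelled unscratched, WT scratched and WT unscratched libraries, 1 bar per library. The bar of the WT unscratched library is the tallest in both panels, at 302.4 RPKM for the Jun and 84.3 RPKM for the Fos genes.

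The summed Jun RPKM was 3.33, 3.36, 3.05 and 3.59 times the summed Fos RPKM in KO scratched, KO unscratched, WT scratched and WT unscratched cells. The sum for the Jun genes was 211.1 RPKM in KO scratched, 201.7 in KO unscratched, 216.9 in WT scratched and 302.4 in WT unscratched cells. For the Fos genes it was 63.4, 60.0, 71.1 and 84.3 RPKM in the same order. Both families were therefore highest in the WT unscratched library, while the other 3 libraries lay closer to each other. In bulk libraries, fewer expressing cells and less RNA per cell cannot be told apart.

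The same library held the highest CPM of 9 of the 10 genes, all except Fosl1. Over all 12362 genes tested, meaning genes with at least 1 CPM in at least 1 library, the WT unscratched library was the highest for 29.0%. For 8 of the 10 genes it was above each other library beyond the 95% counting intervals, which held for 8.35% of tested genes. Ier3 was the exception, with 116.4 CPM in WT scratched and 116.7 CPM in WT unscratched cells. Counting intervals narrow as counts rise, so a small difference can clear 1 in a gene with many counts. In WT unscratched cells the 10 genes ranged from 37 counts (Fosl1) to 8608 (Egr1), most of them far above the 1 CPM filter. The shares of tested genes set beside such intervals, here and below, were not matched for level. The lowest library was KO unscratched for 7 of the 10 genes, against 24.1% of tested genes. With the WT unscratched library left out, WT scratched was the highest of the 3 others for 6 of the 10 genes (39.7% of tested genes) and KO unscratched the lowest for 7 (32.7%).

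**Figure D2:**
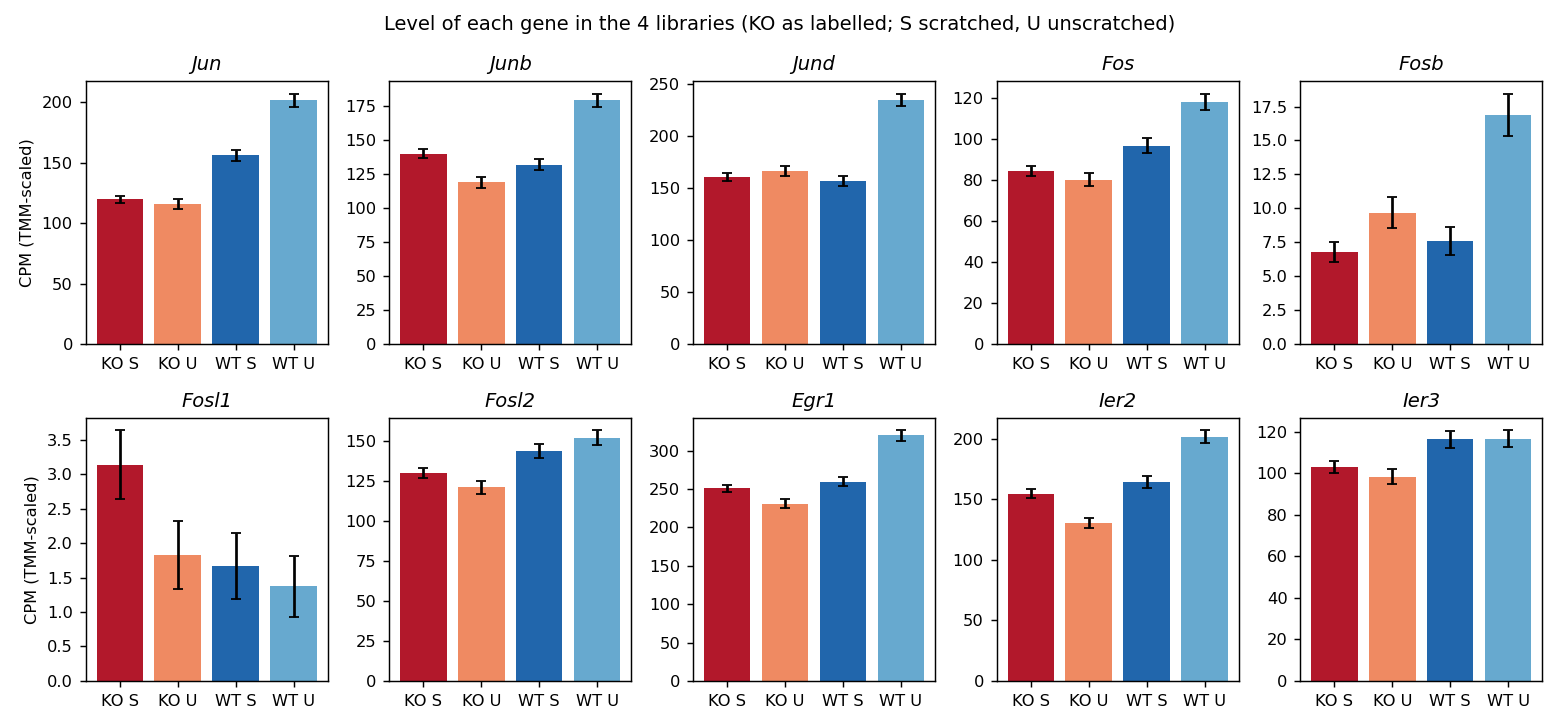
TMM-scaled CPM (vertical axis, from 0) of each of the 10 genes in KO-labelled scratched (KO S), KO-labelled unscratched (KO U), WT scratched (WT S) and WT unscratched (WT U) cells, with 95% counting intervals as error bars and 1 library per bar. WT U is the tallest bar for 9 genes, while Fosl1 is tallest in KO S at 3.14 CPM.

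Without a scratch, 9 of these 10 genes, all except Fosl1, were lower in the KO-labelled library than in WT. Jun, Junb, Fosb and Ier2 were at least 1.5-fold lower with a counting interval that excluded 1, the rule used here to call a difference. These 4 of 10 compare with 3.03% of all tested genes called lower, and 0 of the 10 were called higher against 3.44%. The intervals of 9 of the 10 genes lay below 1, against 25.0% of tested genes, and 0 lay above it, against 25.8%. The median log2 difference of the 10 genes was -0.53, against 0.00 over all tested genes.

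Jun, the founding member of the family, stood at 116.0 CPM in KO unscratched and 201.7 CPM in WT unscratched cells, a ratio of 0.575 (95% exact interval 0.551 to 0.600, from 3423 and 5430 counts). Fosb, a Fos protein with strong transactivating isoforms, stood at 9.69 CPM in KO and 16.9 CPM in WT unscratched cells, a ratio of 0.573 (0.493 to 0.666, from 286 and 455 counts). Ier2 stood at 130.7 CPM in KO and 201.8 CPM in WT unscratched cells, a ratio of 0.648 (0.622 to 0.675). For all 3 genes the KO library was the lower one by more than counting error.

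Junb was the called gene nearest the fold minimum. It stood at 118.7 CPM in KO and 178.7 CPM in WT unscratched cells, 1.505-fold lower in KO. Fos lay just outside, at 80.2 CPM in KO and 118.0 CPM in WT unscratched cells, 1.47-fold lower in KO. Jund stood at 166.6 against 235.0 CPM and Egr1 at 230.8 against 319.7 CPM in KO and WT unscratched cells, ratios of 0.709 (0.683 to 0.736) and 0.722 (0.699 to 0.745). Fosl2 and Ier3 had the smallest differences of the 9, with ratios of 0.796 and 0.844. Fosl1, which codes for Fra-1, was the one gene above 1, at 1.83 CPM in KO and 1.37 CPM in WT, with an interval of 0.860 to 2.08 that included 1.

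After the scratch the genotypes lay closer together. Of the 10 genes, 0 were called lower in the KO-labelled library, against 1.84% of tested genes, and Fosl1 was called higher, against 3.41%. The intervals of 6 genes lay below 1 (23.3% of tested genes) and those of 2 genes, Junb and Fosl1, above it (24.4%). The median log2 difference was -0.12, against 0.00 over all tested genes.

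Jun had the lowest KO to WT ratio of the 10 genes in scratched cells. It stood at 119.6 CPM in KO scratched and 156.1 CPM in WT scratched cells, a ratio of 0.767 (0.737 to 0.798). Fos stood at 84.5 CPM in KO and 96.8 CPM in WT scratched cells, a ratio of 0.873 (0.831 to 0.917). The ratio of Ier3 was 0.887, that of Fosl2 0.904, that of Ier2 0.941 and that of Egr1 0.966. Jund, at 160.7 CPM in KO and 157.1 CPM in WT scratched cells, and Fosb, at 6.80 and 7.60 CPM, had intervals that included 1. Junb stood at 139.6 CPM in KO and 131.6 CPM in WT scratched cells, a ratio of 1.06 (1.02 to 1.10).

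Fosl1 was the gene that went the other way. It stood at 3.14 CPM in KO scratched, 1.83 CPM in KO unscratched, 1.68 CPM in WT scratched and 1.37 CPM in WT unscratched cells, from 151, 54, 47 and 37 counts. The KO to WT ratio in scratched cells was 1.87 (1.34 to 2.66). The 3 lower libraries could not be ordered, since each interval between neighbours included 1. Fosl1 overlaps Ccdc85b on the opposite strand, which stood at 8.15, 6.27, 4.67 and 8.47 CPM in KO scratched, KO unscratched, WT scratched and WT unscratched cells. Since the sources used here do not give the strand setting of the counting, reads of the overlap are uncertain. Junb likewise overlaps Prdx2, which ran the other way without a scratch, at 271.6 CPM in KO and 207.3 CPM in WT unscratched cells. Jun and Jund overlap antisense genes with at most 13 counts in a library.

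**Figure D3:**
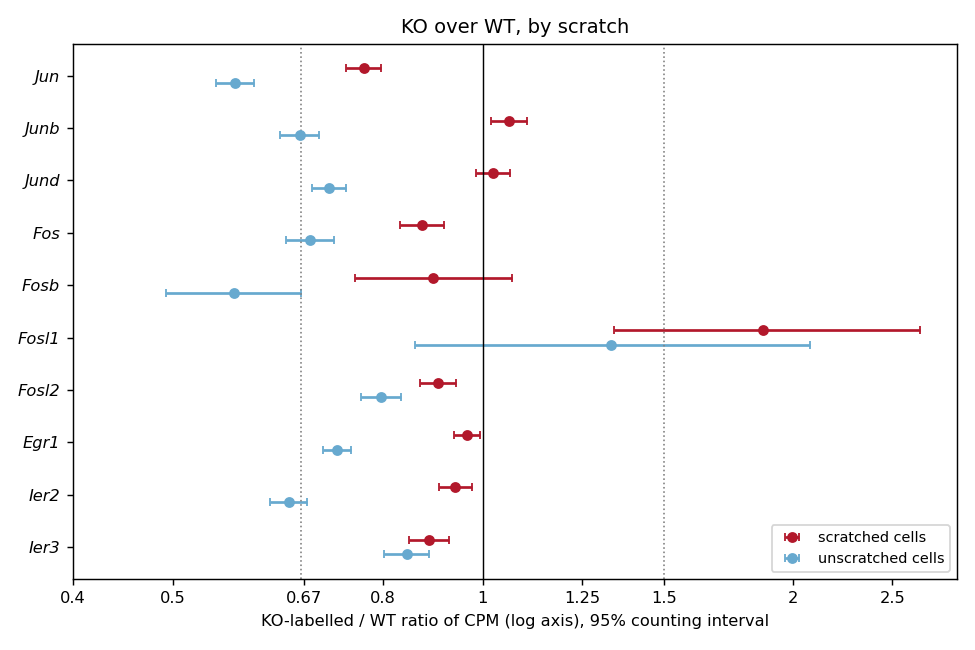
Ratio of CPM in KO-labelled over WT cells (horizontal log axis) for each gene (vertical axis), in scratched (red) and unscratched (blue) cells, with 95% counting intervals and dotted lines at the 1.5-fold minimum. The unscratched ratios of 9 genes lie between 0.573 and 0.844, and the scratched ratio of each of the 10 genes lies to the right of its unscratched ratio.

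The scratch response at 24 hours differed in sign between the genotypes for several of the genes. In KO-labelled cells 7 of the 10 had intervals above 1 (15.6% of tested genes) and 2, Jund and Fosb, below it (15.6%). In WT cells 0 had an interval above 1 (18.7%) and 8 had one below it (17.7%). Few were large: in KO cells Fosl1 was called higher (0.502% of tested genes) and 0 were called lower (0.744%), and in WT cells Fosb was called lower (2.05%) and 0 were called higher (0.502%). The median log2 difference of the 10 genes was 0.09 in KO and -0.30 in WT cells, against -0.00 and 0.00 over all tested genes.

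Junb was 1.18-fold higher in KO scratched than in KO unscratched cells (1.13 to 1.23), while in WT cells its scratched to unscratched ratio was 0.737 (0.706 to 0.769). Ier2 had ratios of 1.18 (1.14 to 1.23) in KO and 0.816 (0.784 to 0.849) in WT cells, and Egr1 1.09 (1.055 to 1.12) in KO and 0.812 (0.787 to 0.838) in WT cells. For these genes the scratched libraries of both genotypes ended near the same CPM, such as 250.8 in KO and 259.5 in WT for Egr1.

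Fosb was lower after the scratch in both genotypes. Its ratio was 0.702 (0.597 to 0.825) in KO cells and 0.449 (0.380 to 0.530) in WT cells, the lowest of the 10 genes in each. Jund had ratios of 0.964 (0.930 to 0.9997) in KO and 0.669 (0.643 to 0.695) in WT cells. Fosl1 was 1.72-fold higher in KO cells, with an interval above 1 that reached 2.39, and its interval in WT cells, 0.776 to 1.93, included 1. Jun stood at 1.03 (0.989 to 1.08) in KO and 0.774 (0.743 to 0.805) in WT cells. Fosl2 and Ier3 had the smallest responses in WT cells, at 0.945 and 0.997.

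**Figure D4:**
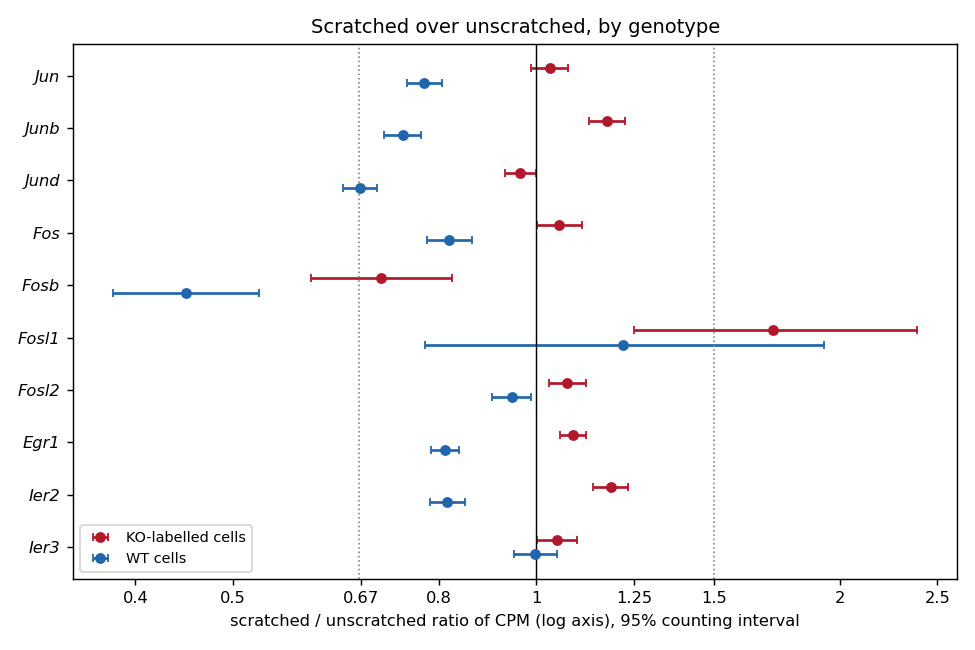
Ratio of CPM in scratched over unscratched cells (horizontal log axis) for each gene (vertical axis), in KO-labelled (red) and WT (blue) cells, with 95% counting intervals and dotted lines at the 1.5-fold minimum. WT ratios of 8 genes lie between 0.449 and 0.945 with intervals below 1, and KO-labelled ratios lie to their right.

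The difference of the scratch responses, KO minus WT on the log2 scale, was above 0 with an interval excluding 0 for 8 of the 10 genes, against 12.6% of tested genes. For 0 of the 10 it was below 0, against 13.7%. It was largest for Junb, at 0.67 (0.59 to 0.76), and Fosb, at 0.64 (0.31 to 0.97), the genes past 1.5-fold (1.53% of tested genes). It was 0.54 for Ier2, 0.53 for Jund, 0.42 for Egr1, 0.41 for Jun, 0.36 for Fos and 0.18 for Fosl2. The intervals of Fosl1 (0.49, lower bound -0.27) and Ier3 (0.07, lower bound -0.03) included 0. The WT unscratched library enters this difference, the WT scratch response and the unscratched KO to WT ratio, so these 3 results are not independent of each other.

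**Figure D5:**
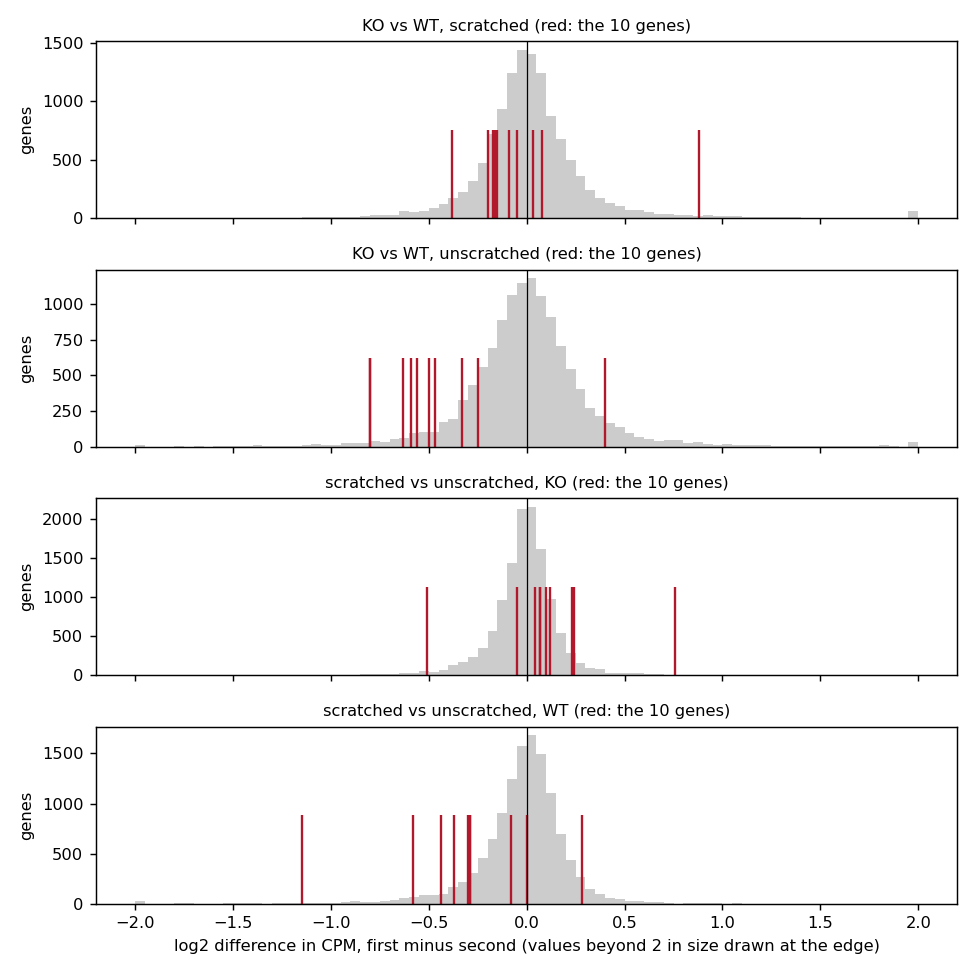
Number of tested genes (vertical axis) by log2 difference in CPM (horizontal axis) for 4 comparisons, from top to bottom KO-labelled minus WT in scratched cells, the same in unscratched cells, scratched minus unscratched in KO-labelled cells, and the same in WT cells, with the 10 genes as red lines. The red lines sit mostly left of 0 in the 2 comparisons that use the WT unscratched library, with medians of -0.53 and -0.30. In KO-labelled minus WT scratched cells 7 of the 10 also lie left of 0, with a median of -0.12.

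Some gene features and library measures moved with these genes. The 191 tested single-exon genes had median log2 differences of -0.15 in KO minus WT unscratched cells and -0.13 in WT scratched minus unscratched cells, against 0.07 in KO minus WT scratched cells and 0.02 in KO scratched minus unscratched cells. The 1162 genes in the highest 10% for GC content had medians of -0.08 and -0.12 in the comparisons that use the WT unscratched library, and 0.06 and 0.00 in the others. In the comparisons that use the WT unscratched library these medians have the same sign as those of the 10 genes (-0.53 and -0.30) and are smaller. In KO minus WT scratched cells they have the opposite sign to that of the 10 genes (-0.12). The 1159 genes in the highest 10% for ATTTA per kb of 3′ UTR had medians between -0.02 and 0.02 in the 4 comparisons. Mitochondrial counts were also at their highest share in the WT unscratched library. The part of GC content, exon structure and mitochondrial share in the results was not tested.

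The counts of called genes turned on the minimum. With the higher library at least 25% above the lower, 8 of the 10 genes were called in KO against WT unscratched cells (16.5% of tested genes), 2 in scratched cells (12.6%), 2 for the scratch in KO cells (3.69%) and 4 for the scratch in WT cells (6.49%). At 2-fold these counts were 0 (2.27%), 0 (1.9%), 0 (0.259%) and 1 (0.89%), the last being Fosb in WT cells.

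As a secondary test, an additive model of genotype and scratch over the 4 libraries was fitted with edgeR's quasi-likelihood test and Benjamini-Hochberg adjustment over all tested genes. Its 1 residual degree of freedom is the difference of the scratch responses, so its p-values compare these libraries and not replicate cultures. The model fits 1 genotype change to both scratch states, although the difference of scratch responses excluded 0 for 8 of the 10 genes. A fitted change can thus average unequal ones. The KO minus WT log2 difference without and after a scratch was -0.47 and -0.05 for Egr1, and -0.25 and -0.17 for Ier3. By genotype 7 of the 10 genes fell in KO-labelled cells (11.0% of tested genes) and 1, Fosl1, rose (12.2%). The fitted log2 changes, given with their standard errors, were -0.59 ± 0.08 for Jun (adjusted p = 0.000243 by edgeR), -0.50 ± 0.13 for Fosb, -0.37 ± 0.07 for Fos, -0.36 ± 0.09 for Ier2, -0.26 ± 0.08 for Egr1, -0.24 ± 0.06 for Fosl2, -0.21 ± 0.05 for Ier3 and 0.70 ± 0.22 for Fosl1. Junb (-0.25 ± 0.11) and Jund (-0.23 ± 0.09) did not pass (adjusted p = 0.122 and 0.089 by edgeR). By scratch, Fosb fell (-0.83 ± 0.13, adjusted p = 0.016 by edgeR; 0.518% of tested genes fell), and 0 rose (0.518%). With DESeq2 in the same design, 0 of the 10 genes passed for genotype, the smallest adjusted p being 0.0504, and 4 had an unadjusted p under 0.05. For scratch DESeq2 passed 0, with 1 at an unadjusted p under 0.05.

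Other basic leucine zipper genes, many but not all of whose proteins can pair with Jun or Fos proteins, were examined with the same fit. Of 17 such genes 13 were tested, and by genotype 4 fell (11.0% of all tested genes) and 0 rose (12.2%) with edgeR's quasi-likelihood test. Those that fell were Maff (-0.28 ± 0.07), Atf4, the effector of the amino acid response (-0.23 ± 0.06), Mafg (-0.18 ± 0.06) and the AP-1 repressor Jdp2 (-0.14 ± 0.05). Atf3, a stress-induced partner of Jun, stood at 14.4 and 12.4 CPM in KO scratched and unscratched cells, against 13.5 and 11.1 CPM in WT. The list's median log2 difference was -0.11 in unscratched and -0.03 in scratched cells for KO minus WT. By scratch 0 of the 13 passed.

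Among other immediate early transcription factors, genes passed in both directions. Of 21 genes 16 were tested, and by genotype 2 rose, Myc (0.71 ± 0.07) and Id1 (0.31 ± 0.06), and 2 fell, Maff and Bhlhe40 (-0.16 ± 0.05). Over all tested genes 12.2% rose and 11.0% fell, so these counts lie near the shares of all genes. By scratch Myc rose (0.35 ± 0.07) and Ier5l fell (-0.71 ± 0.15), against 0.518% of all tested genes in each direction. Egr2, the nearest relative of Egr1 in the list, stood at 5.43 and 4.68 CPM in KO scratched and unscratched cells, against 5.39 and 5.94 CPM in WT. Egr4 and Npas4 were at 0 in all libraries. The WT unscratched library was the highest for 5 of the 16 (29.0% of all tested genes), and the list's median was -0.09 without and 0.09 after a scratch.

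Of 23 other early response genes 21 were tested, and 5 rose and 6 fell by genotype, against 12.2% and 11.0% of all tested genes. Rhob, a small GTPase (0.66 ± 0.08), and the kinase Plk2 (0.52 ± 0.06) rose, while Ptgs2, the inducible cyclooxygenase (-0.44 ± 0.13), and the kinase Plk3 (-0.40 ± 0.10) fell. By scratch 1 fell, the mRNA decay factor Zfp36l1 (-0.31 ± 0.06), and 0 rose, against 0.518% of all tested genes in each direction. The genotype medians of this list were 0.04 in unscratched and 0.06 in scratched cells.

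Kinases and serum response factors act upstream of AP-1. Of 22 kinases 21 were tested, and by genotype 1 rose (12.2% of all tested genes) and 4 fell (11.0%). Map3k5 rose (0.17 ± 0.05), and the largest falls were those of Map3k7 (-0.25 ± 0.05), Map2k7, an activator of the Jun kinases (-0.24 ± 0.06), and Rps6ka1 (-0.20 ± 0.05). Of 8 serum response and related genes 7 were tested, and Elk3 (0.40 ± 0.08) and Net1 (0.30 ± 0.05) rose while 0 fell. By scratch 0 genes of either list passed.

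Of 25 genes reported elsewhere as AP-1 targets 16 were tested. By genotype 9 rose, Fosl1 among them, and 2 fell, against 12.2% and 11.0% of all tested genes, and whether the list stands apart from other genes was not tested. The chromatin protein Hmga1 rose (0.81 ± 0.09), at 17.3 and 19.0 CPM in KO scratched and unscratched cells against 9.84 and 10.9 CPM in WT. The secreted phosphoprotein Spp1 (2.93 ± 0.44) and the chemokine Cxcl1 (0.67 ± 0.18) also rose but stayed under 4 CPM. The collagenase Mmp13 (-0.34 ± 0.10) and the integrin chain Itgb4 (-0.20 ± 0.06) fell. The list's median was 0.21 without and 0.22 after a scratch, the opposite sign to that of the 10 genes. By scratch 0 of the 16 passed. These lists share genes, among them Maff, Atf3, Srf and Hbegf.

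Heat shock genes, which respond to stress in handling, were measured alongside. Of 11 genes 10 were tested, and Hspd1 rose by genotype (0.35 ± 0.06) and by scratch (0.29 ± 0.06). Inducible Hspa1b stood at 5.57 and 7.11 CPM in KO scratched and unscratched cells, against 6.31 and 9.03 CPM in WT, and its genotype change of -0.26 ± 0.11 did not pass. The part of handling in the levels of the early response genes was not tested.

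Fosb had the widest range of the 10 genes, 2.49-fold between its highest and lowest library. Among 10076 genes with at least 5 CPM in every library, the profiles over the 4 libraries most like that of Fosb were those of Gm5141, Kcp and Pabpn1, at Euclidean distances of 0.376, 0.406 and 0.443 in centred log2 CPM. Like Fosb, each had its highest level in WT unscratched cells, at 11.5, 17.6 and 18.3 CPM. Among the 10 genes themselves, the closest pair of profiles was Fosl2 and Ier3 (0.066), followed by Fos with Egr1 (0.122) and Fos with Ier2 (0.122). For each of the 10, however, the 3 closest of the 10076 genes lay outside the 10. Slf1 lay at 0.0092 from Ier3 and Lrr1 at 0.0265 from Fos. The 3 closest to Junb were the mitochondrial genes mt-Nd5, mt-Nd6 and mt-Cytb, at 0.0475, 0.0595 and 0.0659.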

How the data were processed

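RNA of MLE-12 cells was sequenced after a strand-specific mRNA library preparation, per the labels' protocols. The authors deposited raw read counts for 46078 Ensembl genes and RPKM values for 14844 of them, 161 of which carry no value. The submitters' processing notes list build mm10 and the tools STAR 2.7.9a, Trimmomatic 0.39, edgeR 3.32.1 and HTSeq 0.11.3, and say nothing of what each did. The sources used here do not give the strand setting. Table columns were matched by genotype and the letter for scratch. The other letter, N, was taken to mean no scratch, the one condition left. All statements on the scratch rest on that reading.

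Counts were scaled with TMM (edgeR 4.0.16, R 4.3.3). Genes with at least 1 CPM in at least 1 library were tested, and all 10 genes passed. Ratios carry exact 95% Clopper-Pearson intervals on the split of the counts, which cover counting error only. A difference was called at 1.5-fold, with a prior count of 2, where the interval excluded 1. The difference of scratch responses has a 95% normal interval from counting error. The additive model (common biological variation 5.48%, prior degrees of freedom 11.6) used a false discovery rate of 0.05, with DESeq2 1.42.0 as an alternative. Both the model and the call rule were tested on simulated data. A count of 0 allows up to 3 counts, 0.0621 to 0.112 CPM by library. Annotation was GENCODE M21, where the transcript with the longest 3′ UTR stood for a gene. Python 3.11.15 with scipy 1.17.1 was used.

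The genes, lists, call rule and tests were chosen with earlier results of these data known. From each list at most 4 genes that passed are named per effect, by size, apart from Atf3, Egr2, Hspa1b, Mmp13 and Itgb4, which were chosen after their values were seen. Alternatives were other scalings, filters, fold minimums and the authors' RPKM with pseudocounts of 0.1 and 1. Describing the genes without the WT unscratched library, and by GC content and exon number, was added after seeing the data.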

Additional observations from a re-analysis of the deposited data

Results flagged for a closer look

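For 5 of the 10 genes the scratched to unscratched ratio lay above 1 in KO-labelled cells and below 1 in WT cells, with counting intervals that excluded 1 in both. Over all tested genes, 15.6% had an interval above 1 in KO-labelled cells and 17.7% had one below 1 in WT cells. The share with both was not counted, so whether the 5 genes stand apart was not tested. The ratios were 1.18 in KO and 0.737 in WT cells for Junb, 1.05 and 0.82 for Fos, 1.07 and 0.945 for Fosl2, 1.09 and 0.812 for Egr1, and 1.18 and 0.816 for Ier2. The difference between the genotypes was not tested against variation between cultures, since there was 1 library per condition. The WT ratios all use the WT unscratched library, in which 9 of the 10 genes were at their highest.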

How the results depend on the processing

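No paired analysis was possible because each condition has 1 library and the labels give no replicate numbers, and no library could be left out of the tests for the same reason. The calls of the 10 genes and the 8 positive differences of scratch responses were the same with DESeq2 size factors and with total counts. These scalings were nearly equal, so that sameness is a weak check. Relative to total counts (1), the TMM factors were 0.995 to 1.005 and the DESeq2 factors 0.996 to 1.005. The calls depended on the fold minimum. At 2-fold, 0 genes were called without a scratch, 0 after it, 0 for the scratch in KO cells and 1, Fosb, in WT cells. With the higher library at least 25% above the lower these counts were 8, 2, 2 and 4, against 4, 1, 1 and 1 at 1.5-fold. Over all tested genes, in the same order of comparisons, 800, 649, 154 and 315 were called at 1.5-fold, against 281, 235, 32 and 110 at 2-fold and 2038, 1563, 456 and 802 at the 25% minimum. With at least 5 CPM they were 354, 276, 26 and 77, and without the filter the scratch in KO cells gave 362. With the RPKM and a pseudocount of 1, Junb without a scratch (-0.58) and Fosl1 (0.50 in KO minus WT scratched cells, 0.44 for the scratch in KO cells) were no longer called. In the additive model by genotype, DESeq2 passed 965 genes and 0 of the 10, against 2863 and 8 with edgeR. Total counts and no filter passed all 10, adding Junb and Jund, and robust estimation passed 6, without Egr1 and Ier2. With at least 5 CPM, 7 of the 9 genes tested passed, Fosl1 being too low to test. By scratch, edgeR passed 128 genes and 1 of the 10, DESeq2 36 and 0, total counts 312 and 2, and no filter 534 and 2. The causes of these shifts were not tested. Depth limits mainly Fosl1 (37 to 151 counts) and Fosb (213 to 455 counts).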
